A study of Mus musculus with 62 samples.

Results

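The livers of mice carrying a cachectic melanoma (CAC) were compared with those of mice carrying a non-cachectic melanoma (NCAC) 8 weeks after tumour cells were injected. The comparison was defined by the labels alone and holds 12 of the 62 libraries of the study, 7 CAC and 5 NCAC. The study sequenced liver RNA of female mice that were 2 months old at injection and had received cachectic melanoma cells, non-cachectic melanoma cells or a mock injection (Con), with collection at 2, 4, 6 and 8 weeks. The 5 mock-injected mice of week 8 are used as a reference level. Libraries are labelled biological replicates, and each was taken as 1 animal. The labels give no name for either melanoma line and no body weight or tumour mass. The sources conflict on the host, since the sample labels give C57BL/6J and the series design gives NCI Ath/nude. An LLC (lung carcinoma) time point named in the description of RNA extraction belongs to none of the groups. Neither point could be settled from the labels. If the mice are nude, they lack a working thymus, and a whole T cell response is not part of the model.

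Cachexia is a wasting of muscle and fat that accompanies some tumours and is not reversed by feeding alone. The liver takes part through the acute phase response, in which interleukin-6 acting through STAT3, together with interleukin-1 and glucocorticoids, makes hepatocytes secrete serum amyloid A, haptoglobin, fibrinogen and other plasma proteins. During such a response, hepatocytes are known to lower other tasks, among them drug metabolism by cytochrome P450 enzymes, fatty acid oxidation under the nuclear receptor PPARA and bile acid synthesis. A non-cachectic tumour as the comparator keeps the presence of a tumour common to both groups.

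Expression is given in TPM, a share of all transcripts that is scaled for transcript length and adds up to the same total in every library, so a gene's TPM is its share of the library. Read depth is unknown because no counts were used here. Genes reaching at least 1 TPM in at least 5 of the 62 libraries were tested, 12160 in all. Differences are CAC minus NCAC on the log2(TPM + 1) scale, which understates the change of genes near 1 TPM. They come with a standard error (SE) and an adjusted p from limma, and a gene was called at an adjusted p under 0.05.

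All 12 livers carried hepatocyte transcripts. The 16 hepatocyte markers together made up 130870 to 162170 TPM in CAC and 126680 to 157940 TPM in NCAC, and none was at 0. Of 11 melanocyte and melanoma markers, Mlana, Tyr, Tyrp1 and Mc1r were at 0 in all 12 libraries. The summed level of the list was 12.8 to 25.1 TPM in CAC and 10.8 to 25.3 TPM in NCAC, and most of it was Dct, at 9.43 to 22.4 TPM and 8.90 to 23.8 TPM. Transcripts of neighbouring tissues were present in some libraries. NCAC replicates 1 and 5 held 31.4 and 410 TPM of the muscle actin Acta1 and 49.1 and 86.4 TPM of the fat cell hormone Adipoq, and 2 of the 5 Con libraries held pancreatic transcripts. No CAC library at 8 weeks carried a muscle or pancreatic signal, with Acta1 at most at 1.53 TPM and the pancreatic Ctrb1 at 0.0569 TPM. Adipoq was at 5.02 TPM in CAC replicate 7 and at most at 0.327 TPM in the other CAC libraries. CAC replicate 3 and NCAC replicate 3 each stood apart from their group in several genes, so values with and without them are given where they matter.

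At 8 weeks the cachectic livers devoted a large share of their TPM to acute phase transcripts. The acute phase list took 21.3% ± 5.76 (SD, n = 7) of the library in CAC and 4.17% ± 0.564 (SD, n = 5) in NCAC. Single CAC livers ranged from 9.10% in replicate 3 over a median of 22.98% to 25.65%, and the NCAC livers had 3.51, 4.53, 4.92, 4.07 and 3.80%. Every CAC liver was above every NCAC liver, and Con lay between 3.58 and 4.59%, within the range of NCAC. Albumin transcripts took a similar share in both groups, 9.05% ± 0.676 and 8.41% ± 1.41. The share of the major urinary proteins went the other way, 0.244% ± 0.257 in CAC and 4.34% ± 2.54 in NCAC, where replicate 3 was at 0.286% and the other NCAC livers at 3.73 to 6.94%.

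**Figure D1:**
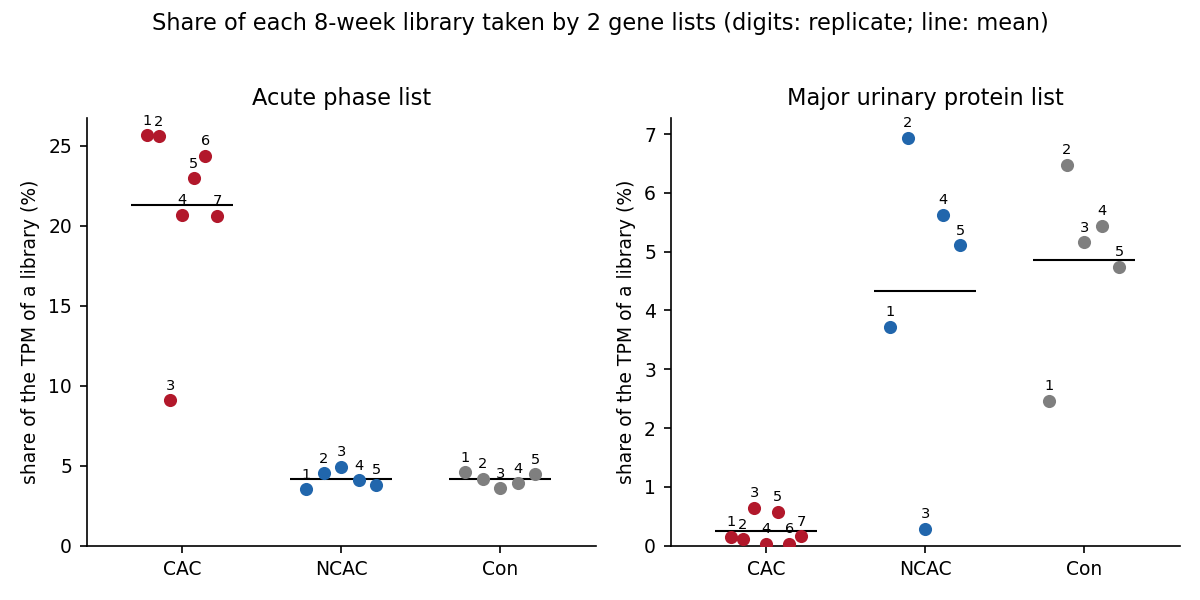
Share of each library's TPM (%, linear axis) taken by the acute phase list (left) and the major urinary protein list (right) in the 8-week livers. Points are livers numbered by replicate and lines are group means. Every CAC liver lies above all NCAC and Con livers on the left, with replicate 3 lowest at 9.10%, and NCAC replicate 3 lies among the CAC livers on the right.

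This share bears on the scale of every other gene. With TPM as deposited, 5863 of the 12160 genes (48.2%) were called, 619 higher (5.09%) and 5244 lower (43.1%) in CAC, and the median gene stood at -0.26. When each library was rescaled to its total without the acute phase list, the median moved to -0.03. Then 2906 genes (23.9%) were called, 1344 higher (11.1%) and 1562 lower (12.8%), with members of the list still tested. All 619 genes called higher as deposited were also called higher after rescaling. This was close to fixed in advance, because rescaling moved the differences upward in general. The same holds for each increase given below under both scalings. Of the 5244 called lower, 1562 were called lower after rescaling and 0 were called higher. A second rescaling, by median of ratios, gave 3042 calls (25%), 1474 higher and 1568 lower. Counts for gene groups are therefore given under both scalings, called below deposited and rescaled, and a group is read against the share of all genes called under the same scaling. Requiring a difference of at least 2-fold as well left 586 genes (4.82%) as deposited, 172 higher (1.41%) and 414 lower (3.4%). After rescaling it left 515 (4.24%), 282 higher (2.32%) and 233 lower (1.92%). The acute phase share is not the only setting that moved the counts. Without the libraries that carried transcripts of other tissues, 3454 genes were lower as deposited, and 1396 were higher and 748 lower after rescaling. Removing the 20 highest genes moved the median to -0.40. How much of the excess of lower calls goes with each was not tested.

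**Figure D2:**
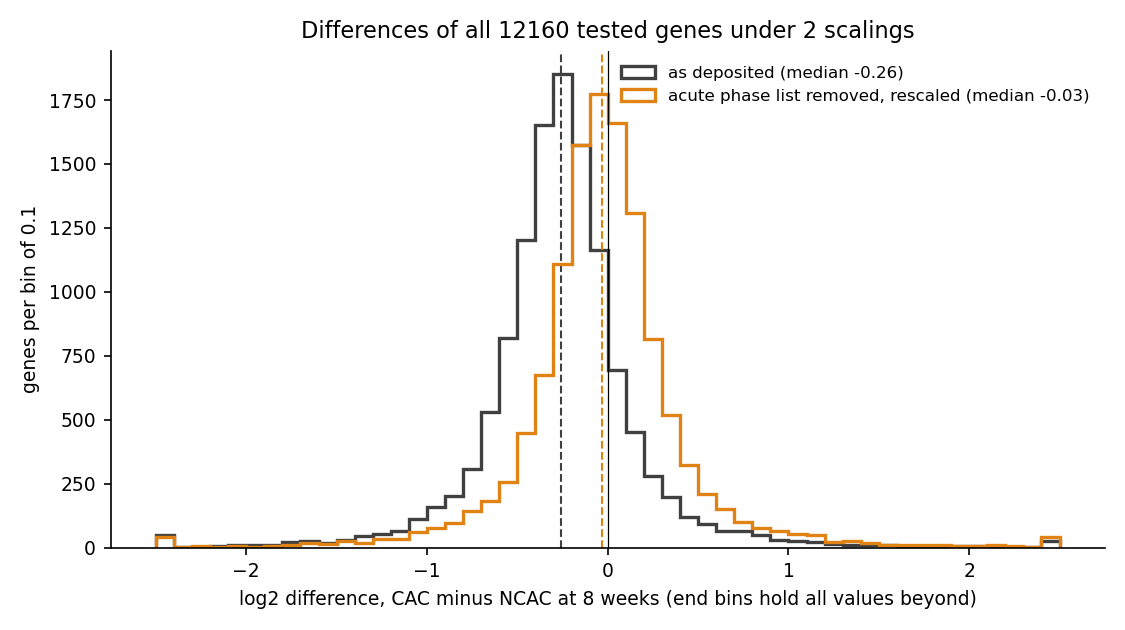
Number of genes (y axis, per bin of 0.1) by log2 difference, CAC minus NCAC at 8 weeks (x axis). All 12160 tested genes are shown as deposited (grey) and rescaled to the total without the acute phase list (orange). Dashed lines are the medians, -0.26 and -0.03, and the end bins hold all values beyond. The whole distribution moves by about the same amount and its long tails remain on both sides.

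The acute phase proteins carried the largest increases. Of 33 tested members of the list, 32 were higher in CAC and 0 lower, under both scalings, with a median difference of 1.93 as deposited, and in 29 members the CAC and NCAC livers did not overlap at all. Across all genes, 179 (1.47%) were higher without overlap. Leading the list were serum amyloid A1 and A2, small lipid-binding proteins that join high density lipoprotein in inflammation and can deposit as amyloid. Saa2 was at 3042 TPM in the lowest CAC liver, 39182 TPM at the median and 49766 TPM in the highest, against 50.7, 249, 249, 101 and 27.3 TPM in NCAC. Saa1 was at 3365, 35378 and 44151 TPM against 114, 612, 484, 188 and 63.5 TPM. Groups did not overlap for either gene, and the lowest CAC liver, replicate 3 in both cases, was several times above the highest NCAC liver. Mean TPM was 255-fold higher for Saa2 (log2 difference 8.10, SE 0.94, adjusted p = 2.26e-09) and 105-fold higher for Saa1 (6.87, SE 0.79, adjusted p = 1.68e-09). The 2 genes are close paralogs and neighbours on chromosome 7 (mm10), at positions 46740497 to 46742980 and 46751790 to 46754313 in GENCODE M21, so reads may have been split between them in a way the table does not state.

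Lipocalin 2, which withholds iron from bacteria by binding their siderophores, was at 384, 1065 and 1255 TPM in the lowest, median and highest CAC liver and at 20.04, 71.9, 56.1, 31.2 and 20.2 TPM in NCAC. Orosomucoid 2, a lipocalin of plasma, was at 1514, 3069 and 4382 TPM against 85.5, 155, 86.5, 134 and 105 TPM. For both genes all CAC livers were above all NCAC livers. The mean was 25.3-fold higher for Lcn2 (log2 difference 4.73, SE 0.53, adjusted p = 7.50e-10) and 24.8-fold higher for Orm2 (4.55, SE 0.38, adjusted p = 1.81e-13). The metallothioneins Mt1 and Mt2, which bind zinc and copper and are induced by inflammation and glucocorticoids, rose by 3.06 (SE 0.50) and 3.72 (SE 0.58), with Mt2 at 1650 to 5394 TPM in CAC and 101 to 493 TPM in NCAC.

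The abundant plasma proteins of the list moved less in fold and more in amount. Haptoglobin, which binds free haemoglobin, averaged 16924 ± 3126 TPM in CAC and 3105 ± 847 in NCAC, and hemopexin, which binds free haem, 19633 ± 3052 and 4843 ± 630. Orosomucoid 1 averaged 12954 ± 3610 against 2140 ± 408 TPM and serum amyloid P (Apcs), a pentraxin that is the main acute phase pentraxin of the mouse, 4057 ± 1432 against 551 ± 204. The differences were 2.47 for Hp, 2.01 for Hpx, 2.56 for Orm1 and 2.84 for Apcs, each with an adjusted p of 2.26e-09 or lower. In Hp, Hpx and Orm1 replicate 3 was the lowest CAC liver and still above every NCAC liver. Lipopolysaccharide-binding protein, which presents endotoxin to CD14, was more even, 166 to 254 TPM in CAC against 39.0 to 60.9 TPM in NCAC (2.13, SE 0.17). C-reactive protein, the leading acute phase pentraxin in people and a weak one in mice, rose by only 0.69 (SE 0.13, adjusted p = 2.77e-05), from 200 ± 19.4 to 328 ± 64.0 TPM.

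**Figure D3:**
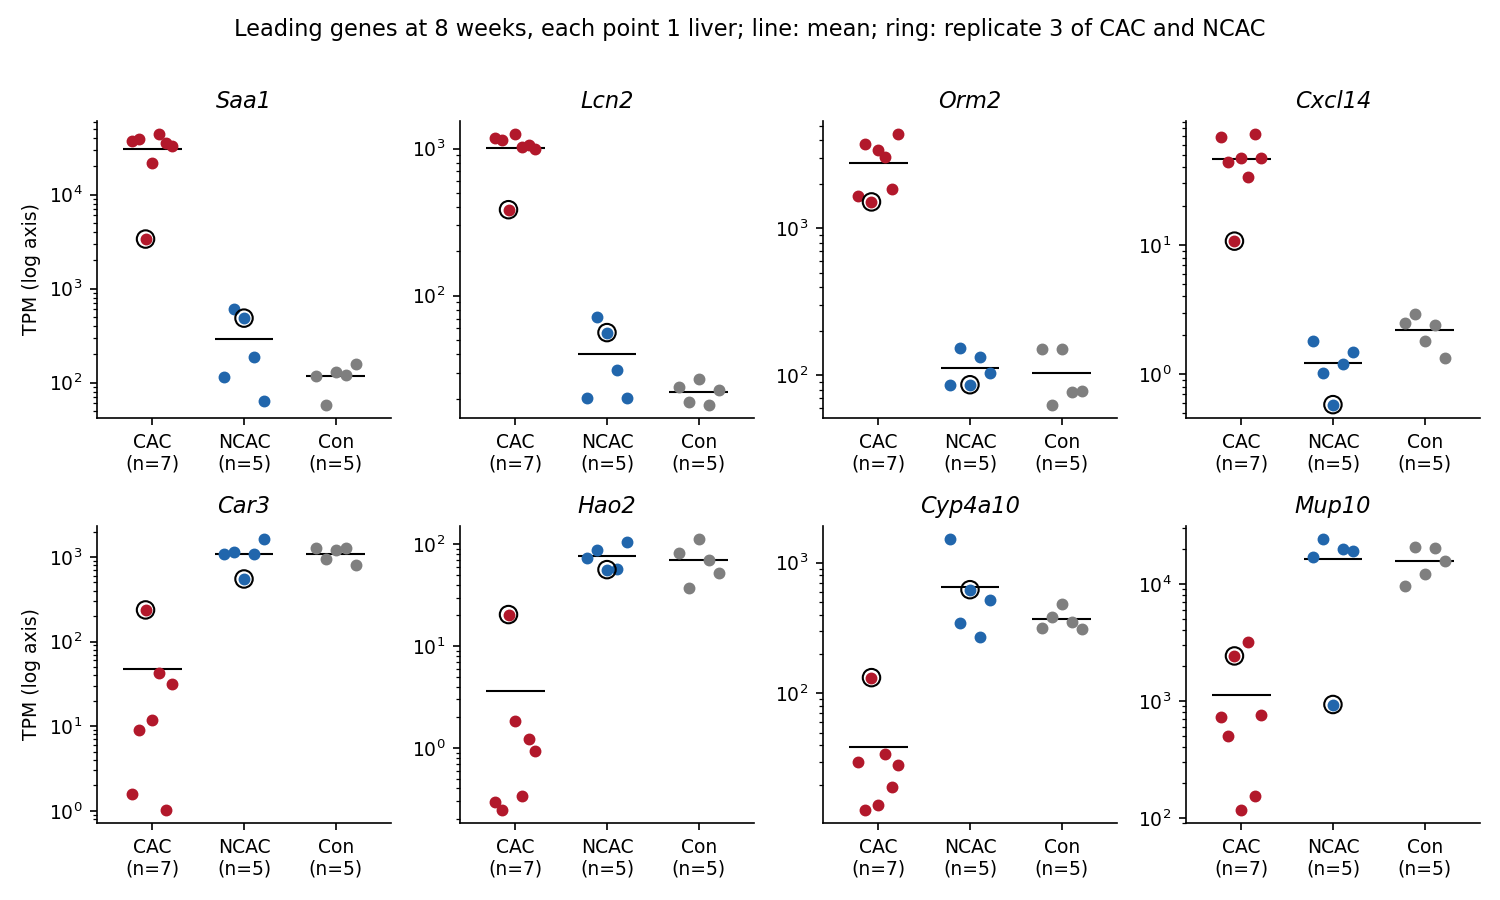
TPM (log axis) of 4 genes with large increases (top) and 4 with large decreases (bottom) in the 7 CAC, 5 NCAC and 5 Con livers of week 8. Points are livers, lines are group means, and rings mark replicate 3 of CAC and of NCAC. CAC and NCAC livers do not overlap in any panel except Mup10, where NCAC replicate 3 (930 TPM) lies within the CAC range.

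The bases before the start of several of these genes are shown because C/EBP, STAT and NF-kB motifs are known from acute phase promoters. They are from RefSeq on build GRCm38.p6, the 250 bases 5′ of the annotated start, written 5′ to 3′ on the strand of the gene, with motif matches in capitals. Saa1 is at chr7:46742981-46743230 (minus strand), Saa2 at chr7:46751583-46751832 (plus strand), Lcn2 at chr2:32387740-32387989 (minus strand), Orm2 at chr4:63362199-63362448 (plus strand), Socs3 at chr11:117969367-117969616 (minus strand) and Cxcl1 at chr5:90890995-90891244 (plus strand).
Saa1: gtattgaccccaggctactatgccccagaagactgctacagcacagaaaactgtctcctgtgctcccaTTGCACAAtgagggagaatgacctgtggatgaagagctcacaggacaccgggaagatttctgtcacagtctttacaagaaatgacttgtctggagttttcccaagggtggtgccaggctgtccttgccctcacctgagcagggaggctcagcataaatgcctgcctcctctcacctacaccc
Saa2: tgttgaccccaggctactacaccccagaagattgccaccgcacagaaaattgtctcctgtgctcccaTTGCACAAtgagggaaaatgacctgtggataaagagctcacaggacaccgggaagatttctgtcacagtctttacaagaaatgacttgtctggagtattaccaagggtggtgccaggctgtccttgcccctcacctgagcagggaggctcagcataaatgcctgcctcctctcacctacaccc
Lcn2: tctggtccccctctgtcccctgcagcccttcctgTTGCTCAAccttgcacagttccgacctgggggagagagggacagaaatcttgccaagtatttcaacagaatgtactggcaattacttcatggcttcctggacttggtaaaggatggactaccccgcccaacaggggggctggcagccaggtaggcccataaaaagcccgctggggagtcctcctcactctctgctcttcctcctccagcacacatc
Orm2: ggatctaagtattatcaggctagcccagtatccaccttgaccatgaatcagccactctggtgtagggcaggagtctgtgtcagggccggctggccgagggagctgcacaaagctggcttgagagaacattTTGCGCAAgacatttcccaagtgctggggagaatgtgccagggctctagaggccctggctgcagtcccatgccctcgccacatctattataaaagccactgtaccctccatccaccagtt
Socs3: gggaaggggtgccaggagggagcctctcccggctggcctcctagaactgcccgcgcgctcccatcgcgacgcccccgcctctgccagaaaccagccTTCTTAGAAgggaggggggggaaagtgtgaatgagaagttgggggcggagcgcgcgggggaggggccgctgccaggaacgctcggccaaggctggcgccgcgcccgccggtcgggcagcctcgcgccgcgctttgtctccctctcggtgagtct
Cxcl1: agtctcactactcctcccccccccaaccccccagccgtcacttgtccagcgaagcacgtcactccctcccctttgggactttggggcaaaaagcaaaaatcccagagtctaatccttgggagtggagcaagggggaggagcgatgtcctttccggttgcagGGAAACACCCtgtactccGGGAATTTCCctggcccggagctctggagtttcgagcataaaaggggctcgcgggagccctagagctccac
In the first 4 the capitals mark a match to TTGCNNAA, a C/EBP-type motif. Socs3 holds a match to TTCNNNGAA, the STAT-type motif, and Cxcl1 holds 2 matches to the NF-kB type, spelled GGG, NN, TT, N and CC, of which the first, GGAAACACCC, is read on the opposite strand. The search covered both strands of windows from 250 bases before to 50 after the start, and these motifs do not overlap each other in the sequences shown. Of all 32817 such windows in RefSeq, 10.8% hold the C/EBP-type letters, 8.29% the STAT-type and 4.80% the NF-kB-type. The Saa1 and Saa2 windows are 95.3% identical over their alignment. Of the 30 genes with the largest changes, 25 had an entry. Among the 15 increases Mt2 also held TTGCNNAA, and Cxcl14, Csf2rb2 and Apcs held TTCNNNGAA. None of the 10 decreases with an entry held any of these letters. Nor did they hold the direct repeat bound by PPARA with RXR, 2 copies of AGGNCA with 1 base between them. That repeat is in 0.381% of all windows, so a match among 10 was unlikely. Most of the 10 are urinary protein genes of 1 cluster (Mup2, Mup3, Mup7, Mup9, Mup10, Mup14 and Mup17), and Cyp4a10 had no entry. Their lack of matches therefore does not set them apart from the increases. A match describes letters in a window and is not evidence of binding.

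Genes of interleukin-6 and STAT3 signalling were more often higher than lower. Of 21 tested members, 9 were higher and 3 lower as deposited, and 10 were higher and 2 lower after rescaling. Socs3, the feedback inhibitor that STAT3 induces, was at 31.8, 45.3 and 58.5 TPM in the lowest, median and highest CAC liver and at 5.96, 5.02, 7.49, 4.84 and 12.8 TPM in NCAC. The groups were apart by more than 2-fold even at their nearest livers, and the difference was 2.51 (SE 0.27, adjusted p = 2.04e-10). The oncostatin M receptor Osmr, low in NCAC at 0.492 ± 0.187 TPM, reached 3.11 ± 1.17 TPM in CAC (1.41, SE 0.15). Lrg1, a secreted glycoprotein induced by STAT3, averaged 2069 ± 508 against 404 ± 136 TPM (2.37, SE 0.26), and Cebpd, a transcription factor that maintains acute phase transcription, 14.7 ± 2.98 against 4.01 ± 1.87 TPM (1.72, SE 0.30). None of these 4 genes, the members with the smallest p, overlapped between the groups. Of all 21 members 6 were without overlap, as were 15.5% of all tested genes.

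In the interleukin-1, TNF and NF-kB list, 11 of 26 were higher and 2 lower as deposited, and 13 and 1 after rescaling. The deposited count rests on CAC replicate 3 in part, since without it 9 were higher and 8 lower. The interleukin-1 receptor Il1r1 was at 31.7, 75.2 and 99.0 TPM in CAC (lowest, median and highest) and at 10.9, 9.72, 25.9, 10.3 and 8.61 TPM in NCAC. CAC replicate 3 was the lowest of its group and NCAC replicate 3 the highest of its own, and the groups still did not overlap (2.39, SE 0.34, adjusted p = 2.92e-07). Cxcl1, a chemokine that attracts neutrophils, was at 75.8, 111 and 354 TPM in CAC and at 7.06, 13.2, 8.28, 22.4 and 5.66 TPM in NCAC. Here CAC replicate 3, low in Saa1 and Lcn2, was the highest liver (difference 3.53, SE 0.43, adjusted p = 6.37e-09). Irak3, which damps signalling from interleukin-1 and Toll-like receptors, rose by 0.97 (SE 0.12), from 0.492 ± 0.200 to 1.94 ± 0.527 TPM. Sod2, the mitochondrial superoxide dismutase and a known NF-kB target, fell by 0.76 (SE 0.11), from 96.2 ± 10.4 to 56.8 ± 11.1 TPM, and stayed called lower after rescaling at -0.48.

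Of 22 genes known to respond to glucocorticoids, 11 were higher and 2 lower as deposited, and 12 and 1 after rescaling. Besides Mt1, Mt2 and Cebpd, which other lists share, the list was led by Sult1e1, the sulfotransferase that inactivates oestrogens. It was at 5.79 TPM in CAC replicate 3, 118 TPM at the median and 487 TPM in the highest CAC liver, against 11.6, 8.02, 12.1, 2.27 and 0.439 TPM in NCAC. CAC replicate 3 thus lay inside the NCAC range while the other 6 CAC livers were all above it (4.28, SE 0.76, adjusted p = 1.35e-05). Cdkn1a, which encodes the cell cycle inhibitor p21 and also sits in the list, averaged 18.9 ± 15.3 against 2.33 ± 2.86 TPM (2.38, SE 0.60, adjusted p = 0.00121), with replicates 1 and 6 at 39.7 and 38.2 TPM and replicate 3 at 1.40 TPM. Outside that list, corticosteroid-binding globulin (Serpina6), the plasma carrier of glucocorticoids, fell by 4.09 (SE 0.55, adjusted p = 7.98e-08). Its levels were 7.07, 37.1 and 603 TPM in the lowest, median and highest CAC liver and 823, 674, 453, 1006 and 878 TPM in NCAC. The single CAC liver within the NCAC range was replicate 3.

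Among the other large increases, several genes encode secreted or surface proteins with no place in the lists above. The chemokine Cxcl14 was at 10.7, 47.0 and 72.4 TPM in CAC and at 1.80, 1.02, 0.581, 1.204 and 1.495 TPM in NCAC (4.26, SE 0.33, adjusted p = 3.27e-14). Isyna1, which makes inositol phosphate from glucose 6-phosphate, averaged 87.3 ± 30.4 against 7.73 ± 2.46 TPM (3.29, SE 0.29). The chitinase-like protein Chil1 was at 3.26 to 14.6 TPM in CAC and at 0.264 to 0.525 TPM in NCAC (2.89, SE 0.21), and Csf2rb2, a receptor subunit of the interleukin-3 family in the mouse, at 3.02 to 37.2 against 0.712 to 1.41 TPM (2.98, SE 0.31). Clca3a1 averaged 33.7 ± 13.6 against 4.15 ± 0.893 TPM (2.63, SE 0.26). P-selectin (Selp), which captures leukocytes on activated endothelium, was at 3.44 to 6.94 TPM in CAC and at 0.444 to 0.939 TPM in NCAC (1.83, SE 0.14). None of these 6 genes overlapped between the groups, and in Cxcl14, Isyna1, Chil1, Csf2rb2, Clca3a1 and Selp alike CAC replicate 3 was the lowest CAC liver.

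Among clotting factors and complement, more genes were called higher than lower. In the coagulation list 13 of 29 were higher and 3 lower as deposited (5 lower without CAC replicate 3), and 19 and 2 after rescaling. The 3 chains of fibrinogen, which other lists also hold, rose together. Fga averaged 10868 ± 3592 against 2645 ± 631 TPM (1.99, SE 0.18), Fgb 10312 ± 2980 against 2321 ± 581 TPM (2.13, SE 0.20), and Fgg 12163 ± 3706 against 3105 ± 652 TPM (1.93, SE 0.18). Cpb2, which slows the breakdown of fibrin, rose by 1.27 (SE 0.11), and its CAC livers, 783 to 1320 TPM, were all above its NCAC livers, 407 to 542 TPM. In the complement list 13 of 31 were higher and 3 lower as deposited, and 18 and 2 after rescaling. C3, the central component, rose by 0.86 (SE 0.11), from 4360 ± 215 to 7997 ± 1220 TPM, C4b by 0.81 (SE 0.12), and factor I (Cfi), which cleaves C3b, by 0.91 (SE 0.10). C8a, a subunit of the membrane attack complex, rose by 1.28 (SE 0.19), and its lowest CAC liver (331 TPM) was just below its highest NCAC liver (334 TPM).

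Carriers and apolipoproteins split under the scaling. As deposited 5 of 30 were higher and 10 lower, and after rescaling 13 were higher and 3 lower. Of all genes, 5.09% were higher and 43.1% lower as deposited, and 11.1% and 12.8% after rescaling. The share lower was thus under that of all genes in both cases. Transferrin (Trf), the iron carrier of plasma, was higher under both, by 0.57 (SE 0.10) as deposited, with 12252 to 17167 TPM in CAC and 8132 to 10853 TPM in NCAC. Hepatic lipase (Lipc) fell by 2.03 (SE 0.26) and apolipoprotein A2 (Apoa2), a main protein of high density lipoprotein, by 0.86 (SE 0.15). In Lipc 6 CAC livers lay at 17.4 to 50.3 TPM and replicate 3 at 151 TPM, against 135 to 215 TPM in NCAC. Albumin itself did not pass the test as deposited (0.12, SE 0.10, adjusted p = 0.346) and was called higher after rescaling (0.40, adjusted p = 0.00616). Of 30 genes of iron and haem handling, 6 were higher and 7 lower as deposited, and 7 and 5 after rescaling. The deposited share lower was again under that of all genes. Ceruloplasmin (Cp), a copper oxidase needed for iron release, rose by 1.18 (SE 0.14), and the zinc importer Slc39a4 fell by 1.25 (SE 0.16). Hepcidin (Hamp), the hormone that blocks iron export and a known target of interleukin-6, was at 8.49, 2794 and 4143 TPM in the lowest, median and highest CAC liver and at 2385, 2872, 4898, 2407 and 2164 TPM in NCAC. The groups overlapped and the difference of -1.33 (SE 0.75, adjusted p = 0.134) did not pass. It rests on CAC replicate 3, the liver at 8.49 TPM, and was -0.18 without it.

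Genes of fatty acid oxidation were lower nearly as a block. Of 39 tested members of the fatty acid oxidation and PPARA list, 35 were lower as deposited and 31 after rescaling, with 0 higher under either, and the median difference was -1.03. Cyp4a10, the omega-hydroxylase of fatty acids that PPARA induces, was at 12.9, 27.98 and 132 TPM in the lowest, median and highest CAC liver and at 1514, 345, 620, 271 and 521 TPM in NCAC. All CAC livers were below all NCAC livers, with replicate 3 nearest to them (-4.22, SE 0.44, adjusted p = 1.2e-10). Acaa1b, a thiolase of the peroxisome, was at 13.7, 46.8 and 492 TPM in CAC and at 1526, 532, 439, 674 and 925 TPM in NCAC. Its groups overlapped through CAC replicate 3 alone (-3.90, SE 0.48, adjusted p = 8.04e-09). Aldh3a2, which oxidises fatty aldehydes, fell by 2.44 (SE 0.27) and Hadh, the mitochondrial short chain hydroxyacyl dehydrogenase, by 1.15 (SE 0.15), both without overlap between the groups. Cpt1a, which admits long chain fatty acids to mitochondria, stood at 169 ± 41.2 against 248 ± 32.2 TPM and missed the threshold (-0.59, SE 0.26, adjusted p = 0.0517). After rescaling the difference was -0.30, and without CAC replicate 3 it passed at -0.67 (adjusted p = 0.0298).

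Car3 and Hao2 had the largest decreases by log2 difference apart from Mup9. Car3, the carbonic anhydrase of muscle, fat and liver, was at 1.03, 11.95 and 237 TPM in the lowest, median and highest CAC liver and at 1074, 1159, 550, 1084 and 1630 TPM in NCAC. The groups did not overlap, although NCAC replicate 3 and CAC replicate 3 came within a few fold of each other (-6.05, SE 0.57, adjusted p = 7.53e-12). Car3 is also abundant in fat and is a member of the adipocyte list. It was at 550 to 1159 TPM in the 3 NCAC livers without muscle transcripts as well, and with other-tissue libraries left out its difference was -5.82. Hao2, a peroxisomal oxidase of hydroxylated fatty acids, was at 0.248, 0.938 and 20.4 TPM in CAC and at 74.0, 88.6, 56.4, 56.9 and 104 TPM in NCAC. Again no CAC liver reached the NCAC range (-4.92, SE 0.42, adjusted p = 2.26e-13).

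Lipid synthesis was lower as well. Of 28 genes of fatty acid and triglyceride synthesis, 20 were lower as deposited and 17 after rescaling, and 0 were higher. Malic enzyme (Me1), a source of NADPH for this pathway, averaged 22.7 ± 21.6 against 94.8 ± 27.6 TPM (-2.27, SE 0.28). In 6 of the 7 CAC livers it was between 10.9 and 18.8 TPM, and replicate 3, at 71.2 TPM, lay within the NCAC range of 60.0 to 130 TPM. Mlxipl, which encodes the carbohydrate-response factor ChREBP, fell by 1.35 (SE 0.22) without overlap, and its known target pyruvate kinase (Pklr) by 1.96 (SE 0.31). Elovl2, an elongase of long polyunsaturated fatty acids, fell by 1.46 (SE 0.24). Srebf1, a master regulator of the pathway, was at 53.1 ± 22.98 against 70.5 ± 10.7 TPM (-0.54, SE 0.26, adjusted p = 0.0773). The desaturase Scd1 was at 110 to 2404 TPM in CAC, with replicate 3 highest, and at 226 to 909 TPM in NCAC (adjusted p = 0.659). Cholesterol synthesis changed little, with 6 of 26 lower as deposited and 2 higher and 2 lower after rescaling, in each case under the share of all genes. Sc5d, an enzyme of its late steps, fell by 1.53 (SE 0.27), and Insig1, which retains the sterol sensor in the endoplasmic reticulum, by 1.02 (SE 0.28).

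In bile acid synthesis and transport 19 of 28 were lower and 2 higher as deposited, and 12 and 2 after rescaling. Cyp8b1, the hydroxylase that leads to cholic acid, was at 7.80, 60.0 and 123 TPM in the lowest, median and highest CAC liver and at 265, 194, 390, 173 and 278 TPM in NCAC. No CAC liver reached the NCAC range (-2.30, SE 0.37, adjusted p = 2.80e-06). Cyp7a1, the rate-limiting enzyme of the classic pathway, varied from 22.7 to 155 TPM in CAC and from 71.9 to 267 TPM in NCAC and did not pass (-1.35, SE 0.68, adjusted p = 0.095). Among transporters, the uptake carrier Slco1a4 fell by 1.61 (SE 0.24) and Abcb4, which exports phospholipid into bile, by 1.11 (SE 0.17), both without overlap. Akr1c6 fell by 1.27 (SE 0.20). The organic anion carrier Slco1a1, a gene induced by pulsed growth hormone and otherwise stronger in males, fell by 3.80 (SE 0.77, adjusted p = 9.13e-05). It was at 0.00968 to 0.449 TPM in CAC and at 56.5, 14.7, 0.964, 14.5 and 27.9 TPM in NCAC, where replicate 3 stood far below the rest of its group.

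Drug metabolism was lower in most of its members. Of 39 P450 genes, 27 were lower and 2 higher as deposited, and 21 and 3 after rescaling. Of 45 conjugation and NRF2 genes, 34 were lower and 0 higher as deposited, and 22 and 1 after rescaling. Cyp2a22 was at 2.20, 8.65 and 20.4 TPM in the lowest, median and highest CAC liver and at 142, 85.3, 98.9, 69.2 and 93.3 TPM in NCAC, with a wide gap between the groups (-3.54, SE 0.33, adjusted p = 6.06e-12). Cyp2c37 fell by 1.70 (SE 0.19), Cyp2b9, a P450 that is stronger in females, by 1.97 (SE 0.26), and Cyp1a2, which metabolises caffeine, by 1.64 (SE 0.22). Each of these 4, the P450 genes with the smallest p, was without overlap. Of all 39 P450 genes 15 were without overlap, as were 15.5% of all tested genes. Among conjugating enzymes the bile acid and steroid sulfotransferase Sult2a8 averaged 52.2 ± 59.5 against 452 ± 159 TPM (-3.58, SE 0.41), the glucuronosyltransferase Ugt1a9 27.0 ± 23.7 against 173 ± 26.7 TPM (-3.00, SE 0.40), and the glutathione transferase Gsta2 7.29 ± 7.20 against 47.3 ± 14.8 TPM (-2.78, SE 0.32). Sult1c2 fell by 1.97 (SE 0.26). The transcription factor NRF2 itself (Nfe2l2) fell by 0.71 (SE 0.13), to 12.7 to 24.04 TPM in CAC against 26.2 to 38.7 TPM in NCAC.

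The major urinary proteins, small lipocalins that carry pheromones and are made by the liver under growth hormone, were lower in 15 of 18 members as deposited and 14 after rescaling, with a median difference of -3.69. Mup10 was at 117, 730 and 3196 TPM in the lowest, median and highest CAC liver and at 17099, 24143, 930, 19954 and 19109.7 TPM in NCAC. Mup3 was at 14.4, 99.6 and 800 TPM against 1437, 2218, 678, 2722 and 3102 TPM. In both genes 4 NCAC livers were above every CAC liver and NCAC replicate 3 was inside the CAC range. Mup10 differed by -4.10 (SE 0.69, adjusted p = 5.42e-06) and Mup3 by -4.26 (SE 0.58, adjusted p = 8.34e-08). The other urinary protein genes among the largest decreases (Mup1, Mup2, Mup7, Mup9, Mup14, Mup16 and Mup17) fell by 3.91 to 5.11 and showed the same low value in NCAC replicate 3. The urinary protein genes are near-identical copies in 1 cluster on chromosome 4, so the division of reads among them is uncertain and they are not independent of each other. Of 20 female-biased liver genes, 8 were lower and 0 higher as deposited, and 7 and 0 after rescaling. Hao2 and Cyp2b13 were among them, the latter at -3.05 (SE 0.43). All genes were lower in 43.1% as deposited and 12.8% after rescaling, so only the rescaled count was above the share.

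In the growth hormone and IGF axis, 7 of 15 were lower and 1 higher as deposited, and 3 and 1 after rescaling. As deposited this was near the 43.1% of all genes that were lower, and after rescaling 12.8% of all genes were lower. The growth hormone receptor Ghr fell by 0.78 (SE 0.15), and its levels, 33.9 to 67.3 TPM in CAC and 75.4 to 114 TPM in NCAC, did not overlap. Its signal transducers Stat5a and Stat5b fell by 0.71 (SE 0.16) and 0.69 (SE 0.17) as deposited, and after rescaling Stat5b was no longer called (-0.42, adjusted p = 0.0569). Igf1, the hormone that growth hormone induces, was at 149 ± 13.3 TPM in CAC and 155 ± 13.8 TPM in NCAC, a difference of -0.06 (SE 0.12, adjusted p = 0.703). Igfbp2 fell by 1.34 (SE 0.27, adjusted p = 6.87e-05), from 390 ± 136 to 165 ± 77.1 TPM. Igfbp1, which sequesters IGF1 and rises in fasting and stress, was at 35.8, 62.4 and 398 TPM in the lowest, median and highest CAC liver and at 11.6, 6.74, 43.1, 69.0 and 11.6 TPM in NCAC. The groups overlapped, replicates 1 (398 TPM) and 6 (285 TPM) were far above the other CAC livers, and the difference was 2.19 (SE 0.66, adjusted p = 0.00544). With the libraries that carried transcripts of other tissues left out it was 1.72 (adjusted p = 0.0907).

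Of the list of hormones secreted by the liver, 8 of 26 were higher and 4 lower as deposited, and 10 and 0 after rescaling. Follistatin (Fst), which binds activin, was at 4.15 to 18.9 TPM in CAC and 0.839 to 2.93 TPM in NCAC (1.52, SE 0.27), and adrenomedullin (Adm), a vasodilator, at 1.86 to 4.39 against 0.687 to 1.62 TPM (1.07, SE 0.15). Fgl1, a fibrinogen-like protein that interleukin-6 induces, rose by 1.10 (SE 0.18). Fgf21, a fasting hormone driven by PPARA, was low throughout, 0.527 ± 0.388 against 1.61 ± 0.514 TPM (-0.78, SE 0.28, adjusted p = 0.0173), and was not called after rescaling (-0.71, adjusted p = 0.0614). Gdf15, a hormone of appetite loss that many stressed tissues release, was at 0.165, 0.710 and 1.18 TPM in the lowest, median and highest CAC liver and at 1.07, 1.17, 0.629, 0.592 and 0.736 TPM in NCAC. The groups overlapped and the difference did not pass (-0.18, SE 0.24, adjusted p = 0.557).

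Carbohydrate and amino acid genes moved in smaller steps. In gluconeogenesis and glycogen 11 of 24 were lower and 0 higher as deposited, and 8 and 3 after rescaling. The deposited count was near the share of all genes that were lower (43.1%), which was 12.8% after rescaling. Ugp2, which makes the glucose donor of glycogen, fell by 1.23 (SE 0.17), glycogen phosphorylase (Pygl) by 1.01 (SE 0.16) and fructose bisphosphatase (Fbp1) by 1.01 (SE 0.17), each without overlap. Pck1, the gatekeeper of gluconeogenesis, was at 1835 ± 309 TPM in CAC and 1873 ± 441 TPM in NCAC (-0.01, SE 0.27, adjusted p = 0.970). In glycolysis and the pentose phosphate pathway 17 of 26 were lower as deposited, and 8 lower and 1 higher after rescaling, with Eno1 at -1.13 (SE 0.15), Gpi1 at -0.64 (SE 0.11) and the fructose kinase Khk at -0.94 (SE 0.16). In amino acid catabolism and the urea cycle the balance changed with the scaling, from 4 higher and 16 lower of 45 to 10 higher and 6 lower. The share lower was under that of all genes as deposited (43.1%) and near it after rescaling (12.8%). Otc, an enzyme of the urea cycle, was lower under both, by 0.83 (SE 0.11) as deposited, at 113 to 205 TPM in CAC and 215 to 256 TPM in NCAC. Of 17 methionine and one-carbon genes, 2 were higher and 6 lower as deposited, and 4 and 5 after rescaling. The share lower was under that of all genes as deposited and above it after rescaling. Sarcosine dehydrogenase (Sardh) fell by 0.99 (SE 0.13).

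Several large groups lost most of their calls on rescaling. Of 73 nuclear-encoded genes of the respiratory chain, 67 were lower as deposited and 25 after rescaling, with 0 higher under either, and the median difference went from -0.46 to -0.18. Atp5g3, a subunit of ATP synthase, fell by 0.70 (SE 0.09) as deposited and by 0.41 after rescaling, and Ndufa9, of complex I, by 0.60 (SE 0.08) and 0.32. All 8 calls among 13 mitochondrially encoded transcripts were lost. Of 31 proteasome genes 27 were lower as deposited and 6 after rescaling. Ribosomal protein genes went from 5 lower of 76 to 11 higher, and the 33 genes of folding in the endoplasmic reticulum from 5 lower to 4 higher. The deposited counts of both moved with single livers. The ribosomal count was 2 without NCAC replicate 1 or 5, 3 without NCAC replicate 3, 9 without CAC replicate 5 or NCAC replicate 2, 10 without CAC replicate 3 and 11 without NCAC replicate 4. The folding count was 9 without CAC replicate 5 and 8 without NCAC replicate 4. Of 18 clock genes, 7 were lower as deposited, a share under the 43.1% of all genes, and 1 was higher and 0 lower after rescaling. The deposited clock count was 4 without CAC replicate 5 and 3 without NCAC replicate 5. The 34 nuclear receptors and liver transcription factors had 18 lower and 1 higher as deposited, and 7 and 4 after rescaling. Of all genes, 43.1% were lower and 5.09% higher as deposited, and 12.8% and 11.1% after rescaling. Cebpa, a factor of the mature hepatocyte, fell by 1.00 (SE 0.22), with replicate 3 (252 TPM) within the NCAC range and the other CAC livers at 84.3 to 144 TPM.

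**Figure D4:**
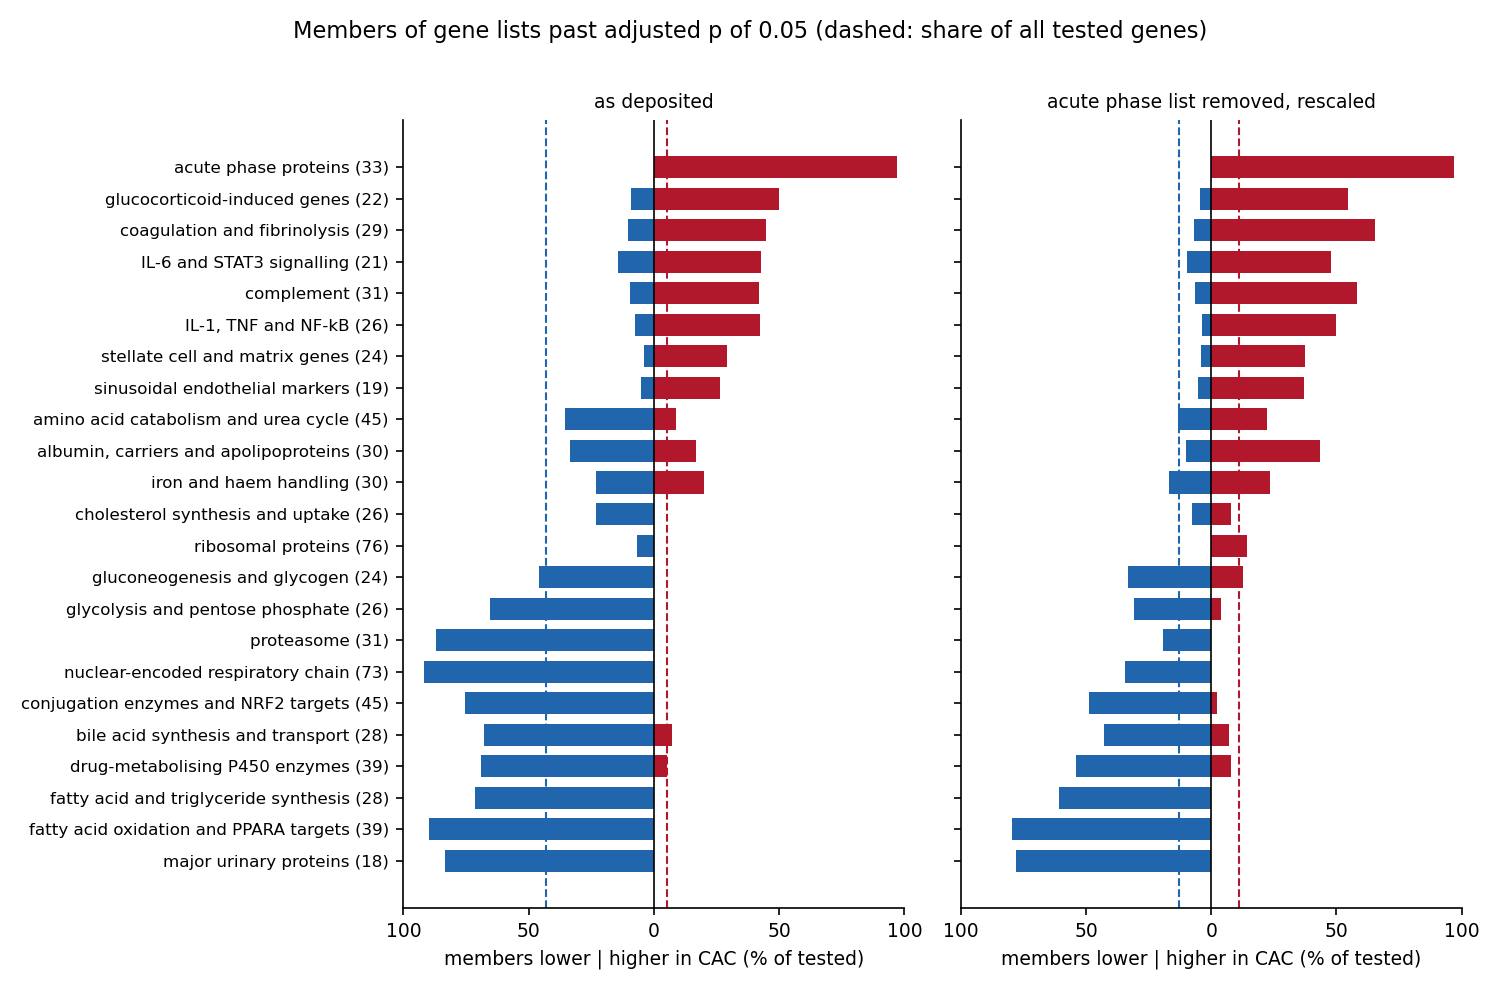
Percent of the tested members of each gene list (number in brackets) that were higher (right, red) or lower (left, blue) in CAC at 8 weeks. Panels show TPM as deposited and rescaled to the total without the acute phase list. Dashed lines are the share of all 12160 genes, 5.09% higher and 43.1% lower as deposited and 11.1% and 12.8% after rescaling. Fatty acid oxidation and the urinary proteins stay far beyond the dashed line under both scalings, whereas the proteasome comes close to it after rescaling.

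Growth and stress genes gave mixed counts. Of 29 cell cycle genes 15 were lower as deposited, and 6 lower and 1 higher after rescaling, where 43.1 and 12.8% of all genes were lower. Cyclin D1 (Ccnd1) was at 12.3 ± 8.34 against 45.7 ± 21.5 TPM (-2.06, SE 0.43, adjusted p = 0.000118). Among 17 p53 targets and growth arrest genes 3 were higher and 4 lower as deposited (2 lower without CAC replicate 2 or NCAC replicate 5), and 4 and 0 after rescaling. Btg2, which restrains proliferation, rose by 1.73 (SE 0.24), from 7.80 ± 1.38 to 28.7 ± 7.95 TPM without overlap. Ddit4, an inhibitor of mTORC1 that glucocorticoids and low energy induce, was at 92.3 and 99.5 TPM in CAC replicates 1 and 6, at 3.88 TPM in replicate 3 and at 2.39 to 6.92 TPM in NCAC (2.03, SE 0.45). Of 33 autophagy and lysosome genes, 3 were higher and 16 lower as deposited, and 7 and 4 after rescaling. Under both scalings the share lower was near that of all genes (43.1 and 12.8%). Map1lc3b, whose product coats autophagosomes, rose by 0.56 (SE 0.13). Interferon-stimulated genes were lower in 9 of 37 as deposited and in 1 after rescaling, and the 21 MHC class I genes in 6 and 1, all under the share of all genes. The interferon count was 4 without CAC replicate 1, 3 without NCAC replicate 5 and 2 without CAC replicate 6 or NCAC replicate 2, and the MHC class I count was 3 without CAC replicate 1 or 6 and 1 without NCAC replicate 5. Without the libraries that carried transcripts of other tissues, the deposited counts fell from 15 to 5 lower in the cell cycle list, from 9 to 1 among interferon-stimulated genes, from 6 to 0 for MHC class I, from 7 to 2 for the clock and from 13 to 8 for pericentral genes, while 5.72% of all genes were then higher and 28.4% lower. Without CAC replicate 3 the cell cycle list had 23 lower.

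In bulk RNA fewer cells of a type and less RNA per cell cannot be told apart. Sinusoidal endothelial markers were higher in 5 of 19 and lower in 1 as deposited, and 7 and 1 after rescaling. The endothelial lectin Clec4g rose by 1.19 (SE 0.21), to 43.4 to 120 TPM in CAC against 25.4 to 38.5 TPM in NCAC, and the scavenger receptor Stab2 by 0.74 (SE 0.18), whereas Wnt2, a signal of endothelium around the central vein, fell by 1.09 (SE 0.17). Stellate cell and matrix genes were higher in 7 of 24 and lower in 1, and 9 and 1 after rescaling, with 4 higher without NCAC replicate 3 and 12 without the other-tissue libraries. Timp1, an inhibitor of matrix proteases, was at 1.32 to 4.57 TPM in CAC and 0.0596 to 0.909 TPM in NCAC (1.54, SE 0.21), and Hgf, a growth factor for hepatocytes, rose by 1.06 (SE 0.24). Of 7 bile duct markers 3 were higher and 1 lower as deposited, and 3 and 0 after rescaling. Osteopontin (Spp1) was among these, at 56.5 ± 9.98 against 21.2 ± 6.43 TPM (1.40, SE 0.19). Of 16 Kupffer cell and macrophage markers limma called 0 as deposited (0 at an unadjusted p under 0.05) and 1 higher after rescaling. Their summed level was 325 to 979 TPM in CAC and 434 to 715 TPM in NCAC.

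Of 6 tested neutrophil markers 3 were called higher in CAC as deposited, where 5.09% of all genes were higher. The filter can admit a low gene through the group in which it is higher, so this count does not stand for the whole list. The summed level of the list was 60.7 to 160 TPM in CAC and 14.0 to 20.9 TPM in NCAC, and 8 of the 17 markers in the table stayed under 1 TPM in all 12 livers. In every CAC liver except replicate 3, most of the sum came from Prtn3, which encodes a protease of neutrophil granules. It was at 49.2, 71.8 and 115 TPM in the lowest, median and highest CAC liver and at 0.901, 1.93, 3.73, 2.41 and 0.692 TPM in NCAC, far apart in every liver (4.77, SE 0.49, adjusted p = 6.88e-11). Stfa2l1 was at 1.40 ± 0.809 against 0.181 ± 0.252 TPM and Retnlg at 2.41 ± 1.45 against 0.947 ± 0.346 TPM, differences of 0.96 and 0.73, and without CAC replicate 3 the latter was 0.57 and no longer passed (adjusted p = 0.0562). How far Prtn3 comes from neutrophils was not tested. B cell markers were lower in 4 of 16 as deposited, a smaller share than the 43.1% of all genes, and in 3, with 1 higher, after rescaling. The deposited count was 7 without NCAC replicate 4 and 2 without NCAC replicate 5. Cd79b was at 0.338 ± 0.214 against 1.78 ± 0.784 TPM (-1.03, SE 0.33). Of 10 erythroid markers 5 were lower, and 3 after rescaling, led by Car1 (-2.61, SE 0.26). The deposited share was near the 43.1% of all genes that were lower, which was 12.8% after rescaling. The deposited count was 8 without CAC replicate 3, 3 without NCAC replicate 5 and 2 without the other-tissue libraries. The summed level of the erythroid markers was 16106 TPM in CAC replicate 3, 66.4 to 2426 TPM in the other CAC livers and 660 to 4106 TPM in NCAC. Adipocyte markers were lower in 6 of 9 as deposited and 4 after rescaling, a result that moves with the fat and muscle transcripts of NCAC replicates 1 and 5. Their summed level was 21.4 to 253 TPM in CAC and 561 to 2867 TPM in NCAC, and Car3 made up most of it in CAC replicate 3 (237 of 253 TPM) and in NCAC replicates 2, 3 and 4 (1159 of 1201, 550 of 561 and 1084 of 1096 TPM). The count was 1 lower without either NCAC replicate 1 or 5 alone, and without all the other-tissue libraries 1 was lower and 1 higher.

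Of 20 pericentral genes 13 were lower as deposited and 7 after rescaling. Notum, a pericentral inhibitor of WNT, fell by 1.32 (SE 0.17), Gulo by 1.00 (SE 0.14) and Cyp2e1 by 0.80 (SE 0.13). Of 20 periportal genes 4 were higher and 8 lower as deposited, and 6 and 4 after rescaling, with Etnppl at -2.38 (SE 0.35) and Ctsc at 0.73 (SE 0.14). The deposited share lower was slightly under that of all genes (43.1%), which was 12.8% after rescaling. Among the 16 hepatocyte markers 3 were higher and 4 lower as deposited, and 7 and 2 after rescaling. The fatty acid binding protein Fabp1 fell by 2.08 (SE 0.38), and replicate 3, at 16608 TPM, was above every NCAC liver while the other CAC livers were at 656 to 3954 TPM.

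Few genes separated mock-injected livers from NCAC. In the same fit 22 genes (0.181%) differed between NCAC and Con at 8 weeks, 3 higher and 19 lower, and 5005 (41.2%) differed between CAC and Con, 714 higher and 4291 lower. These contrasts share libraries with the main one and are given side by side only. Saa1 averaged 117 ± 36.2 TPM in Con, Lcn2 22.2 TPM, Orm2 104 TPM, Car3 1098 TPM, Hao2 70.8 TPM and Cyp4a10 370 TPM. None of these 6 genes was called between NCAC and Con. Mt2, at 78.1 TPM in Con and 296 TPM in NCAC, differed by 2.32 in that contrast without passing (adjusted p = 0.0924).

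The number of genes called was larger at later weeks as deposited, with 7 CAC livers at week 8 and 5 in every other group of the 2 tumours. By the same test 0 genes were called at week 2 (1770 at an unadjusted p under 0.05), 154 (1.27%) at week 4, 1470 (12.1%) at week 6 and 5863 at week 8 (2906 after rescaling). Genes called higher as deposited were 796 at week 6 and 619 at week 8, where the median gene stood at -0.03 and -0.26. After rescaling 1344 were higher at week 8. Week 6 was not counted after rescaling, so the 2 weeks can be compared in this count only as deposited. Of the 33 acute phase genes 25 were higher at week 4, 31 at week 6 and 32 at week 8, where 1.11, 6.55 and 5.09% of all genes were higher. At week 6, 24 of 39 fatty acid oxidation genes and 14 of 18 urinary protein genes were lower, against 5.54% of all genes. Saa1 averaged 809, 9252, 14172 and 30678 TPM in CAC at weeks 2, 4, 6 and 8 and 364, 901, 290 and 292 TPM in NCAC. Hao2 averaged 81.5, 30.5, 6.90 and 3.61 TPM in CAC and 66.9, 75.6, 75.8 and 76.0 TPM in NCAC. The mean of CAC was above that of NCAC for Saa1 at all 4 times and below it for Hao2 at weeks 4, 6 and 8.

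**Figure D5:**
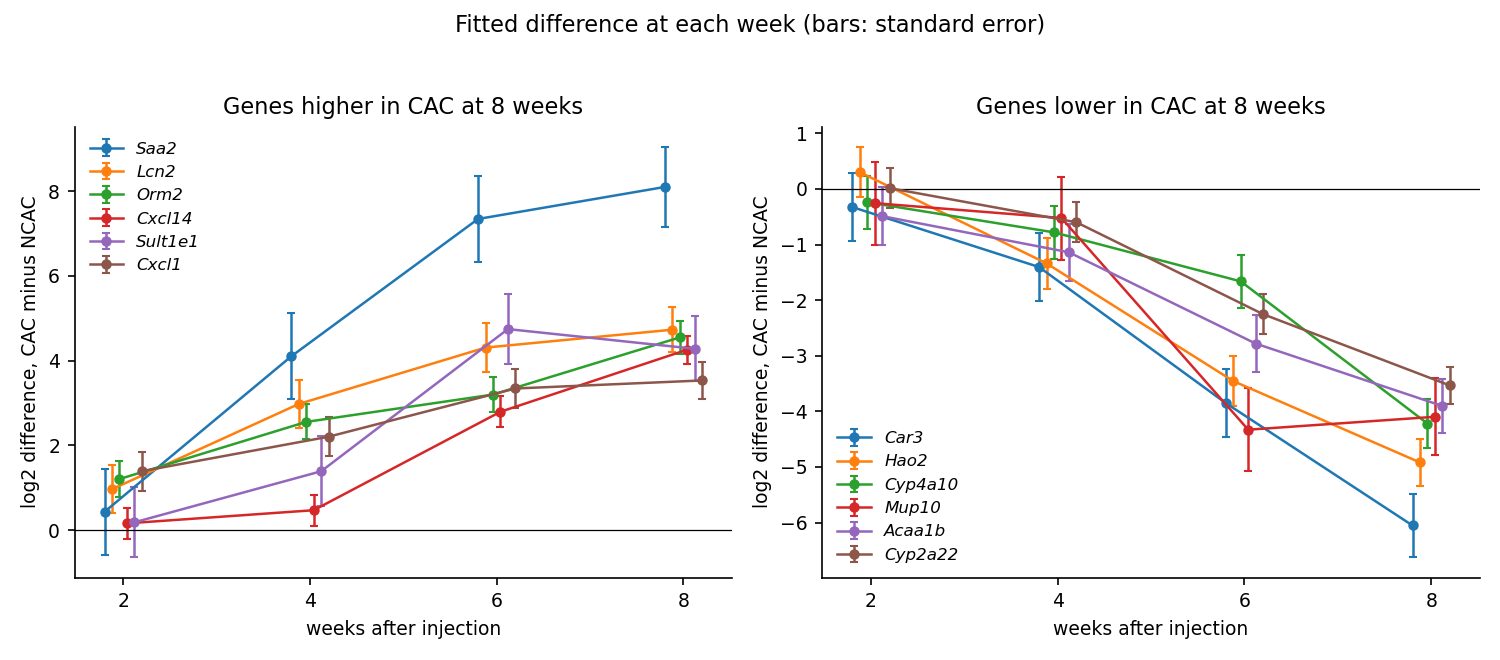
Fitted log2 difference, CAC minus NCAC (y axis), at 2, 4, 6 and 8 weeks (x axis) for 6 genes higher (left) and 6 lower (right) in CAC at week 8. Points are estimates, bars are standard errors, and points are shifted sideways so that bars can be seen. Saa2, Lcn2 and Orm2 passed the test at week 4, when Cxcl14 was at 0.47 (SE 0.36) and Sult1e1 at 1.39 (SE 0.83) without passing, and at week 6 these were at 2.79 and 4.74 and passed.

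Tested directly, the difference at week 8 was unlike that at week 2 in 3332 genes (27.4%), 456 (3.75%) with a larger and 2876 (23.7%) with a smaller value at week 8, and in 1626 genes (13.4%) after rescaling, 828 (6.81%) and 798 (6.56%). The 5 with the smallest p were Chil1, which moved by 2.98 (SE 0.31, adjusted p = 3.96e-09), Selp by 1.71, Hao2 by -5.22, Cxcl14 by 4.09 and Saa4, a constitutive serum amyloid, by 2.11. Chil1 averaged 0.262 TPM in CAC at week 2 and 9.86 TPM at week 8, against 0.353 and 0.373 TPM in NCAC, so the move was in the CAC livers. Between weeks 8 and 6 limma called 0 genes at an adjusted p under 0.05 (2684 at an unadjusted p under 0.05), and this count depended on single livers, since it was 597 without CAC replicate 3 and 611 without NCAC replicate 4. Cyp4a10 moved by -2.56 between these weeks (adjusted p = 0.0794) and Car3 by -2.20.

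The CAC livers of week 8 were not alike. Replicate 3 had the lowest acute phase share (9.10%), and in 13 of the 47 leading and preselected genes it was the outlier of its group by Dixon's test. It had high values of Fabp1, Serpina6, Lipc, Me1 and Acaa1b, near those of NCAC, and the highest Cxcl1. Replicates 1 and 6 were at the other end of several genes, an observation made after the values were seen. They had the lowest Car3 (1.59 and 1.03 TPM), Serpina6 (7.16 and 7.07 TPM) and Ccnd1 (2.21 and 1.38 TPM) and the highest Igfbp1, Cdkn1a and Ddit4. Their Saa1 levels, 37667 and 35378 TPM, were within the range of the other CAC livers. Without replicate 3, 6343 genes (52.2%) were called, 674 higher and 5669 lower, and the genes without overlap rose from 1880 (15.5%) to 3546 (29.2%). Of the 5863 calls 603 of 619 higher and 5134 of 5244 lower were also called without it.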

How the data were processed

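Liver RNA (Trizol extraction, TruSeq stranded mRNA libraries, NovaSeq, per the labels' protocols) was measured in 62 libraries of 12 groups. The authors deposited 1 table of TPM values for 47643 gene symbols, aligned to mm10 per the submitters' processing notes. Aligner and quantifier were not given in the sources used here. Depth is unknown, so precision is known only from the spread between livers. Every library summed to the same TPM total and no 2 libraries were identical. Of the symbols, 45134 matched GENCODE M21, from which positions were taken. Reads of near-identical paralogs (Mup, Saa and Cyp genes) may have been divided in a way not stated.

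The 12160 genes that reached 1 TPM in 5 or more libraries were fitted on log2(TPM + 1) with limma 3.58.1 in R 4.3.3 (12 group means, all 62 libraries, trend in the variance, Benjamini-Hochberg adjustment, threshold 0.05, no minimum fold). The fitted libraries share 1 estimate of the spread. For rescaling, the acute phase list was removed and each library brought back to the same total. Libraries with over 100 TPM of Ctrb1 or over 10 TPM of Acta1 count as carrying other tissue. Named genes are the 15 largest increases and 15 largest decreases among called genes that reached a mean of 5 TPM in CAC or NCAC, kept their direction whichever liver was left out and carry no predicted or clone symbol, then 24 preselected genes, the 4 members of each list with the smallest p, and the 5 genes with the smallest p between weeks 8 and 2. The 51 lists and the members were chosen with earlier results of these data known. Data were simulated for the 8-week comparison (12160 genes, 50 changed at each size). The fit recovered 46, 86, 96 and 100% of genes at true log2 differences of 0.5, 1, 2 and 3, and 5.2% of calls were false. The simulated noise was independent between genes, changes were balanced in direction, and no library differed in scale or tissue. The real data differ in these points, so the 5.2% does not give the false share among the real calls. Alternatives covered scaling, pseudocount, filters, moderation, a replicate block and left-out libraries. The combined settings were chosen after seeing the data. Promoters were read with Python 3.11.15 and aligned with Biopython 1.88, and figures drawn with matplotlib 3.10.9. The replicate numbers of CAC and NCAC were treated as names only.
Some results of the same fit are not reported here.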

Additional observations from a re-analysis of the deposited data

Results flagged for a closer look

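Dixon's test was run on the CAC and NCAC livers of week 8 for 47 genes, 94 groups of values, and marked an extreme liver in 21. Chance marks about 1 in 20 groups, and the genes are not independent of each other. In 13 of the 21 the liver was CAC replicate 3. It was the lowest of its group for Saa2 (3042 TPM, other CAC livers 24290 to 49770), Saa1 (3365 TPM), Lcn2 (384.1 TPM), Sult1e1 (5.794 TPM), Cxcl14 (10.72 TPM), Isyna1 (32.85 TPM), Chil1 (3.262 TPM), Apcs (1248 TPM) and Hamp (8.493 TPM). The same liver was the highest for Cxcl1 (353.8 TPM, other CAC livers 75.81 to 137.7), Hao2 (20.41 TPM), Cyp4a10 (131.6 TPM) and Slco1a1 (0.4488 TPM). In Hao2, Cyp4a10 and Saa1 it stood nearest to NCAC, and in Cxcl1 farthest from it.

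In 7 cases the liver was NCAC replicate 3. It was the lowest of its group for Mup9 (490.7 TPM), Mup16 (9.748 TPM), Mup2 (139 TPM), Mup1 (202.4 TPM), Mup14 (11.42 TPM) and Mup10 (930 TPM, other NCAC livers 17100 to 24140), which are near-identical genes of 1 cluster. It was the highest for Il1r1 (25.89 TPM, other NCAC livers 8.611 to 10.88). The last case was CAC replicate 5, the lowest for Cpt1a (88.9 TPM).

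The CAC minus NCAC difference itself differed between weeks 8 and 2 in 3332 genes by limma at an adjusted p under 0.05. The genes with the smallest p were Chil1 (2.977), Selp (1.714), Hao2 (-5.222), Cxcl14 (4.095) and Saa4 (2.114), each given as the change in the log2 difference.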

How the results depend on the processing

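Of 38 called genes among the largest changes and the preselected genes, all 38 kept call and direction whichever single liver was left out. The 15 largest increases and 15 largest decreases had been chosen to keep their direction in this way. For them the direction was fixed in advance, and only the call could change. Fgf21 lost its call on acute phase removal, median-of-ratios scaling, quantile normalization and the replicate block, and Igfbp1 without the other-tissue libraries and without CAC replicate 3 and NCAC replicates 1 and 5. At a minimum log2 difference of 1, Crp, Igfbp1, Igfbp2, Fgf21, Ccnd1 and Cdkn1a lost their calls, and a mean of at least 5 TPM left Csf2rb2, Chil1 and Fgf21 untested. With acute phase removal and the other-tissue libraries removed as well, Igfbp1, Igfbp2, Fgf21 and Ccnd1 lost their calls. Of all 171 called genes that the naming rule took, 153 kept call and direction on acute phase removal, 148 by median of ratios, 131 with both removals and 55 at the minimum difference of 1.

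The number of calls depended on scaling. Acute phase removal gave 2906 calls (1344 higher, 1562 lower, median -0.0292) and 1626 between weeks 8 and 2, median of ratios 3042 (1474, 1568, median -0.0115) and 1807, and quantile normalization 3314 (1703, 1611, median 7.58e-05) and 1942. Removing the 20 highest genes moved the median to -0.40 and dropping the filter to -0.0775. A mean of at least 5 TPM left 325 higher, and a minimum log2 difference of 1 left 100 calls (46 higher, 54 lower) and 11 between weeks. Without the other-tissue libraries 3454 were lower and 1385 differed between weeks. Acute phase removal without CAC replicate 3 gave 3285 (1524, 1761, median -0.0273) and 5 between weeks 8 and 6, and without the other-tissue libraries 2144 (1396, 748, median 0.0339) and 724 between weeks 8 and 2. The cause was not tested beyond these settings.

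Leaving out each liver in turn gave 4927 to 6343 calls (523 to 674 higher, 4325 to 5669 lower), medians of -0.29 to -0.23, 2789 to 4156 differences between weeks 8 and 2, and 0 to 611 between weeks 8 and 6 (597 without CAC replicate 3, 611 without NCAC replicate 4, 170 without NCAC replicate 2).

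The following differences changed sign. Igf1 was 0.23 on acute phase removal, 0.25 by median of ratios, 0.33 by quantiles, and 0.27 and 0.17 on acute phase removal without CAC replicate 3 and without the other-tissue libraries. Pck1 was 0.27, 0.29, 0.27 and 0.23 in the same settings save quantiles, and -0.14 to 0.0648 with livers left out in turn. Scd1 was 0.00269, 0.0233 and 0.00689 under the 3 scalings, 0.16 with the replicate block, 0.14 without the other-tissue libraries and 0.42 with acute phase removal too. Alb was -3.55e-15 by quantiles, -0.0204 without the 20 highest genes, -0.0284 without the other-tissue libraries and -0.0238 without CAC replicate 3 and NCAC replicates 1 and 5, where Plin1 was 0.00468 and Retn 0.0486. Gdf15 was 0.0051 by quantiles and Hamp 0.14 on acute phase removal without CAC replicate 3. On acute phase removal without the other-tissue libraries Plin1 was 0.000996, Retn 0.0358, Slc3a2 0.0164 and Cdk4 0.0352.

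The replicate block gave 5213 calls (526 higher, 4687 lower), 2615 between weeks 8 and 2 and 0 between weeks 8 and 6. Deviations of same-numbered CAC and NCAC livers correlated at -0.132, 0.0351, -0.169, 0.0404 and 0.172 for replicates 1 to 5. Of 5 CAC livers, 0 correlated best with their own number. These values gave no sign that the numbers pair the livers, but 5 correlations could miss a weak pairing.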

Other observations

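Genes outside the lists also moved far; those named here were chosen after their values were seen, and their differences are CAC minus NCAC at 8 weeks by limma. Several carboxylesterases, enzymes that cleave drug and lipid esters, were lower under both scalings. Ces1f averaged 39.2 ± 70.1 TPM in 7 CAC livers against 179 ± 33.2 TPM in 5 NCAC livers (-3.44, SE 0.47), Ces3a 121 ± 107 against 611 ± 230 TPM (-2.60, SE 0.38) and Ces1d 286 ± 185 against 815 ± 256 TPM (-1.72, SE 0.34). The groups overlapped in all 3. Retsat, which saturates retinol, was at 11.6 to 52.0 TPM in CAC and 110 to 351 TPM in NCAC (-2.63, SE 0.28). Mgll, which splits monoglycerides, fell by 1.72 (SE 0.23) and Inmt, a methyltransferase of amines, fell by 3.55 (SE 0.39), both without overlap. The keratin Krt23 was at 0.192 to 0.949 TPM in CAC and 7.65 to 24.9 TPM in NCAC (-3.76, SE 0.49).

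Transport and signalling genes stood among the increases outside the lists. Slc3a1, part of the carrier of cystine and basic amino acids, averaged 270 ± 72.9 against 58.4 ± 26.6 TPM (2.25, SE 0.25). Slc10a2, the sodium-driven bile acid carrier best known from ileum and bile duct, was at 9.001 to 32.7 TPM in CAC and 3.02 to 7.03 TPM in NCAC (1.71, SE 0.30). Bmper, which binds bone morphogenetic proteins, averaged 19.8 ± 7.43 against 2.76 ± 1.56 TPM (2.45, SE 0.30). All 3 were without overlap between the groups and were also called higher after rescaling.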
